A study of Rattus norvegicus with 9 samples.

Results

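The nuclear-encoded genes of mitochondrial oxidative phosphorylation were followed in cultured heart muscle cells of newborn rats in which the transcriptional co-activator Yap1 had been raised or lowered. The members are the lines of the deposited gene table whose KEGG pathway text names oxidative phosphorylation, less the symbols beginning with Atp6 (subunits of the vacuolar proton pump) and 6 cytochrome oxidase isoforms (Cox6a1, Cox6a2, Cox7a1, Cox7a2, Cox8a and Cox8b). Of 18629 lines, 123 carried that annotation, 29 were left out by symbol and 94 remained. By their symbols, 38 belong to complex I, 4 to complex II, 9 to complex III, 16 to complex IV and 15 to complex V. A further 6 have provisional symbols, and 6 belong to none of the complexes. No mitochondrially encoded gene has a line in the table, so the subunits made inside the organelle were not analysed here.

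In the respiratory chain, complex I takes electrons from NADH and complex II takes them from succinate, complex III passes them to cytochrome c, and complex IV hands them to oxygen. Complexes I, III and IV pump protons across the inner mitochondrial membrane, and complex V, the ATP synthase, uses their return to make ATP. Heart muscle is known for its dense mitochondria and for drawing most of its ATP from this chain, whose nuclear genes are under the control of factors such as NRF1, GABP, YY1, the estrogen-related receptors and the co-activator PGC-1alpha.

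The cells were primary cardiomyocytes (NRCMs) from Sprague-Dawley rats of 1 to 2 days. In all groups they were plated in 10% serum for 18 to 20 h and precultured for 14 h in 1 g/L glucose with 1% serum. All were infected with an adenovirus and given high glucose (33 mM) plus insulin (100 nM), and the treatment lasted 48 h. In the Yap1 WT group the virus carried Yap1 (labelled as overexpression), in the Yap1 shRNA group a hairpin against Yap1 (labelled as knock down), and in the GFP group, which is labelled as wild type and served as control, green fluorescent protein. Each group has 3 libraries, no group carried a control hairpin, and the labels do not say whether the libraries of a group came from separate cultures or animals, so p-values measure only the spread between libraries, which may be technical. Untreated GFP cells, which the labels also mention, were not analysed here.

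Levels are in CPM, the read count scaled to library size by TMM, or in TPM, which is scaled by length too, where genes of different length are set side by side. The Yap1 WT libraries held 10960051 to 11497104 reads assigned to genes, the Yap1 shRNA libraries 6103221 to 6357403 and the GFP libraries 14868180 to 15368473. Yap1 itself had 559, 812 and 622 CPM with Yap1 WT, 95.4, 96.0 and 95.3 CPM with Yap1 shRNA and 197, 198 and 189.8 CPM with GFP, the order that the labels give. A gene was called when its adjusted p in edgeR's quasi-likelihood test was below 0.05, over 13708 genes tested. Of the 94 members, 90 passed the filter on low counts that comes before the test, and the other 4 were Atp5pb, Atp4a and 2 provisional genes.

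The cultures changed in the RNA of muscle markers as well. All 10 cardiomyocyte markers tested (Tnnt2, Tnni3, Actn2, Myh6, Myh7, Ryr2, Pln, Mybpc3, Ttn, Actc1) were present, and all were called lower in both Yap1 groups. Their summed level was 7174 to 12024 CPM with Yap1 WT, 2071 to 2329 CPM with Yap1 shRNA and 44827 to 45362 CPM with GFP. Fibroblast markers summed to 12612 to 17039 CPM with Yap1 WT, 7881 to 8623 CPM with Yap1 shRNA and 18949 to 20183 CPM with GFP. With Yap1 WT, 6 of the 10 fibroblast markers fell and 3 rose, and with Yap1 shRNA 9 fell and 1 rose. Smooth muscle and pericyte markers summed to 3826 to 5229 CPM with Yap1 WT, 3478 to 3882 CPM with Yap1 shRNA and 8885 to 9372 CPM with GFP, and of the 8 tested 7 fell with Yap1 WT and 8 with Yap1 shRNA. Endothelial, macrophage and epicardial markers each summed to under 100 CPM in every library. Of 7 endothelial markers tested 1 fell and 4 rose with Yap1 WT and 1 fell and 6 rose with Yap1 shRNA, of 7 macrophage markers 1 fell and 2 rose and 4 fell and 1 rose, and of 8 epicardial markers 5 fell and 2 rose and 4 fell and 3 rose. Erythroid markers were at or near 0, and none was tested. These marker counts are read against the shares over all genes tested. With Yap1 WT, 31.8% of all genes were called lower and 32.0% higher, and with Yap1 shRNA 39.1% and 39.2%. In bulk RNA, fewer cells of a type and less RNA per cell cannot be told apart, and the part of the muscle markers' fall in the results on the respiratory genes was not tested.

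Nearly the whole set of respiratory genes fell in both Yap1 groups. With Yap1 WT, 82 of the 90 members tested were called lower, where 31.8% of all genes tested were called lower, and 3 were called higher, where 32.0% of all genes were. With Yap1 shRNA, 82 were again lower (39.1% of all genes) and 6 higher (39.2% of all genes). The median member had a log2 fold change of -0.91 with Yap1 WT and of -1.41 with Yap1 shRNA, while the median over all genes tested was 0.00 and -0.01. These medians correspond to levels 1.88-fold lower with Yap1 WT and 2.65-fold lower with Yap1 shRNA than with GFP. The 2 comparisons share the GFP libraries.

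Set against each other, the members stood higher in the Yap1 WT than in the Yap1 shRNA cells. Of the 90, 73 were called higher with Yap1 WT than with Yap1 shRNA, where 31.2% of all genes were, and 6 were called lower, where 31.3% of all genes were. The median log2 fold change of Yap1 WT over Yap1 shRNA was 0.48 for the members and 0.04 for all genes. Once a trend of fold change with transcript length was removed, 59 were called higher and 7 lower.

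The members' share of each library shows the same order. They took 3.93, 3.48 and 3.78% of the TPM in the Yap1 WT libraries, 2.49, 2.60 and 2.55% in the Yap1 shRNA libraries and 6.13, 6.51 and 6.28% in the GFP libraries. The 3 groups did not overlap. The ATP synthase genes were the largest block in each group, with 1.22 ± 0.091% of the TPM with Yap1 WT, 0.763 ± 0.031% with Yap1 shRNA and 2.16 ± 0.066% with GFP (SD, n = 3 each). Complex I genes took 1.01 ± 0.045% with Yap1 WT, 0.731 ± 0.0093% with Yap1 shRNA and 1.68 ± 0.043% with GFP. The smallest block was complex II, with 0.0714 ± 0.0043% with Yap1 WT, 0.0604 ± 0.0015% with Yap1 shRNA and 0.129 ± 0.0025% with GFP.

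**Figure D1:**
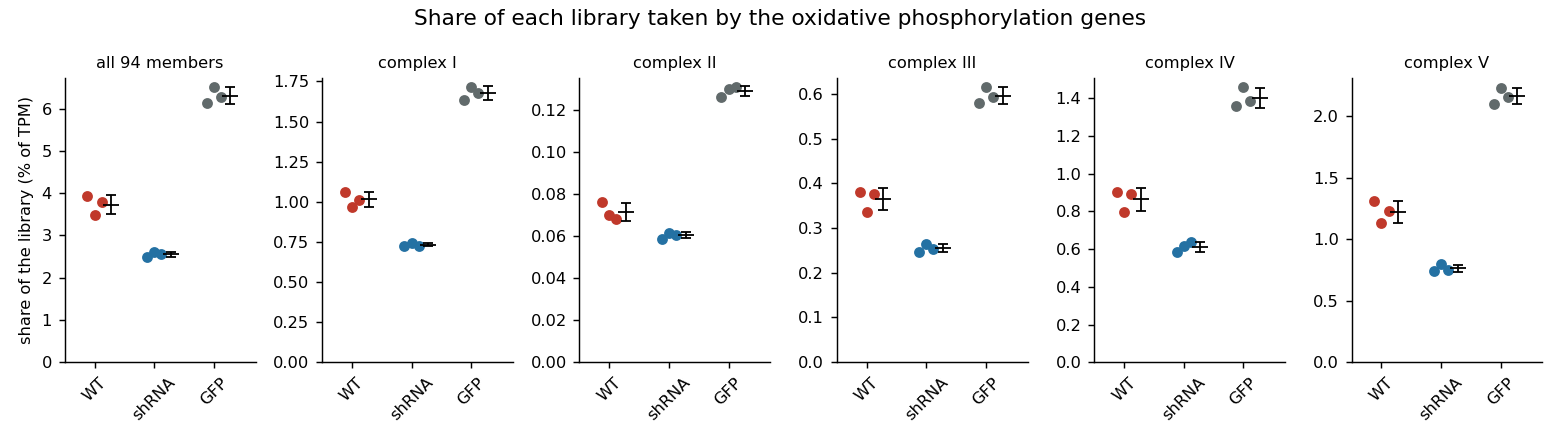
Share of each library, in percent of its TPM, taken by all 94 members and by the genes of each complex, with 1 point per library and the mean ± SD beside each group of 3 (Yap1 WT, Yap1 shRNA, GFP). In every panel the Yap1 WT libraries lie between the Yap1 shRNA and the GFP libraries, for all members at 3.48 to 3.93% with Yap1 WT, 2.49 to 2.60% with Yap1 shRNA and 6.13 to 6.51% with GFP.

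By their medians all 5 complexes stood lower than with GFP, complex IV the least in both Yap1 groups and complex V the most with Yap1 shRNA. Against GFP, the median log2 fold change with Yap1 WT came to -0.87 in complex I, -1.08 in II, -0.95 in III, -0.66 in IV and -1.07 in V. With Yap1 shRNA it was -1.39 in complex I, -1.47 in II, -1.45 in III, -0.92 in IV and -1.65 in V. Every tested gene of complexes II, III and V was called lower in both Yap1 groups. In complex I, 36 of 38 were lower in each Yap1 group, and in complex IV 12 of 16. Over all genes tested, 31.8% were called lower with Yap1 WT and 39.1% with Yap1 shRNA. The counts by complex here and below are read against these shares. A fall of at least 2-fold was called for 29 members with Yap1 WT (32.2%, where 7.39% of all genes tested had one) and for 68 with Yap1 shRNA (75.6%, where 16.6% of all genes had one).

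**Figure D2:**
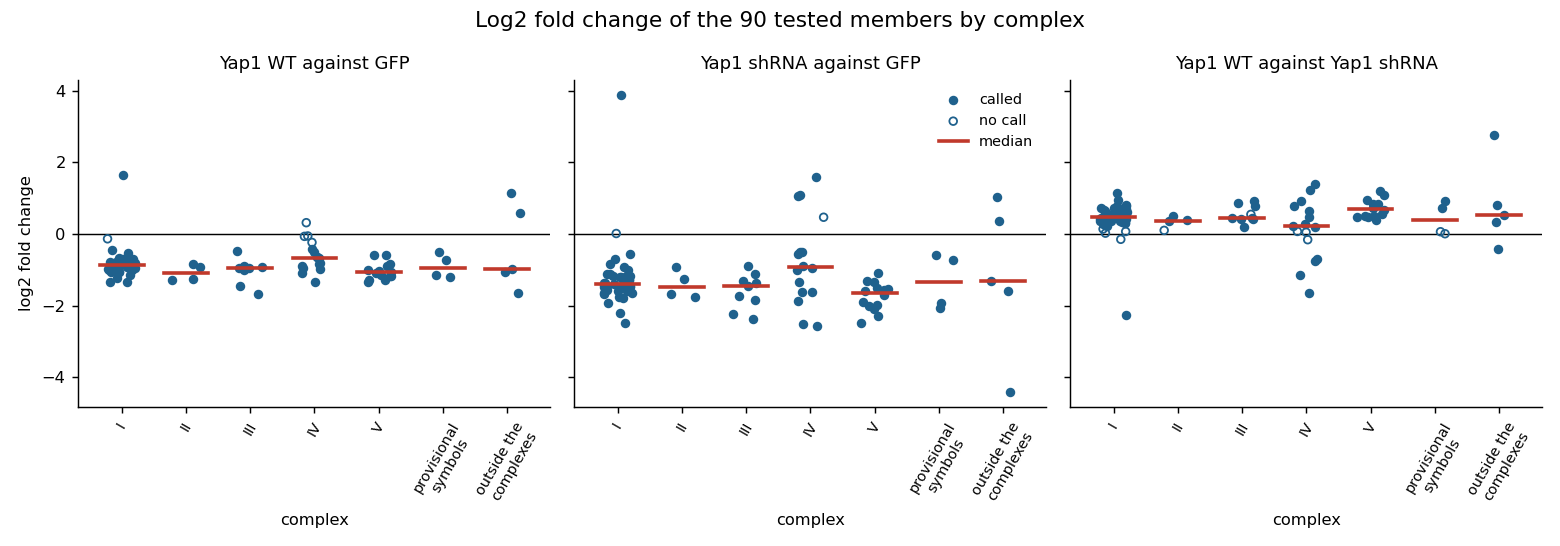
Log2 fold change (y axis) of each of the 90 tested members, by complex (x axis), in the 3 comparisons, with filled points for called members, open points for the others and a bar at the median. Most points lie below 0 against GFP, with medians from -0.66 to -1.08 over complexes I to V with Yap1 WT and from -0.92 to -1.65 with Yap1 shRNA, and above 0 for Yap1 WT over Yap1 shRNA.

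Complex I is the entry point for electrons from NADH. Its 7 nuclear-encoded core subunits, which carry electrons from NADH to quinone, were all called lower in both Yap1 groups. Ndufv1, which binds NADH and the flavin, had 152, 133 and 143 CPM with Yap1 WT, 87.7, 97.2 and 94.0 CPM with Yap1 shRNA and 249, 264 and 276 CPM with GFP. The 3 groups did not overlap, and the log2 fold change came to -0.88 ± 0.06 (SE) with Yap1 WT and to -1.50 ± 0.07 with Yap1 shRNA (edgeR adjusted p = 7.52e-08 and 3.27e-10). Ndufv2, an iron-sulfur subunit beside it, had the largest fall of the 7 in both groups, at -1.33 ± 0.07 and -1.74 ± 0.07. Ndufs7 had the smallest with Yap1 shRNA, at -0.84 ± 0.07. Ndufs1, the largest iron-sulfur subunit, had 175, 157 and 172 CPM with Yap1 WT, 157, 161 and 162 CPM with Yap1 shRNA and 296, 314 and 307 CPM with GFP. For Ndufs1 and Ndufs7 the Yap1 WT and Yap1 shRNA libraries overlapped, and the other 5 core genes were called between these groups. Yap1 WT over Yap1 shRNA gave a log2 fold change of 0.07 ± 0.06 for Ndufs1 (edgeR adjusted p = 0.292), 0.14 ± 0.08 for Ndufs7 (0.13) and 0.62 ± 0.07 for Ndufv1 (4.6e-06). Ndufs3 and Ndufs8 fell by 0.89 and 0.71 on the log2 scale with Yap1 WT and by 1.38 and 1.00 with Yap1 shRNA, against GFP.

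The other 31 genes of complex I, the supernumerary subunits that surround the core, had a median of -0.92 with Yap1 WT and -1.42 with Yap1 shRNA, against -0.86 and -1.11 for the core. With the trend of fold change with length removed this order turned round, with medians of -0.62 and -0.92 for the other genes and -0.78 and -1.05 for the core. Of the 31 other genes, 29 were called lower in each Yap1 group, where 31.8% (Yap1 WT) and 39.1% (Yap1 shRNA) of all genes tested were. Ndufc1, a small membrane subunit, was among the members with the largest falls. It had 20.4, 19.2 and 19.3 CPM with Yap1 WT, 7.03, 10.1 and 9.50 CPM with Yap1 shRNA and 46.1, 53.2 and 49.8 CPM with GFP, levels 2.53-fold lower with Yap1 WT and 5.60-fold lower with Yap1 shRNA than with GFP. Ndufa3, another small membrane subunit, fell by 1.23 ± 0.09 with Yap1 WT and by 2.19 ± 0.11 with Yap1 shRNA on the log2 scale. Ndufa10 had one of the smaller falls, by 0.53 ± 0.07 and 0.56 ± 0.07, while its near copy Ndufa10l1, at 2.40 to 6.24 CPM in all 9 libraries, was not called in any comparison. Reads of such copies could be split between their lines.

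Complex II, the succinate dehydrogenase that also works in the citric acid cycle, is the only complex whose subunits are all encoded in the nucleus. Sdha, its flavoprotein, had 191, 154 and 171 CPM with Yap1 WT, 126, 131 and 140.1 CPM with Yap1 shRNA and 407, 429 and 431 CPM with GFP, with no overlap between the groups. Sdhd, which anchors the enzyme in the membrane, fell by 1.26 ± 0.08 with Yap1 WT and by 1.75 ± 0.08 with Yap1 shRNA on the log2 scale, and the other anchor, Sdhc, by 0.91 ± 0.06 and 1.26 ± 0.06. Sdhb, the iron-sulfur subunit, fell by 0.83 ± 0.06 and 0.93 ± 0.06. Of the 4, Sdhb alone was not called between Yap1 WT and Yap1 shRNA, with a log2 fold change of 0.10 ± 0.06 (edgeR adjusted p = 0.147).

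Complex III, the cytochrome bc1 complex, carries electrons from ubiquinol to cytochrome c. Its Rieske iron-sulfur protein, Uqcrfs1, had 205, 186 and 198 CPM with Yap1 WT, 129.9, 152 and 149 CPM with Yap1 shRNA and 346, 380.3 and 380.1 CPM with GFP. Cytochrome c1 (Cyc1) fell by 1.02 ± 0.08 with Yap1 WT and by 1.45 ± 0.08 with Yap1 shRNA on the log2 scale, and the core proteins Uqcrc1 and Uqcrc2 fell by 0.92 and 0.89 with Yap1 WT and by 1.12 and 1.32 with Yap1 shRNA. The small subunits lay at both ends of the range. Uqcrh, the hinge protein between cytochromes c1 and c, had 121, 94.3 and 107 CPM with Yap1 WT, 53.5, 57.9 and 58.6 CPM with Yap1 shRNA and 288, 297 and 296 CPM with GFP, a level 2.73-fold lower with Yap1 WT and 5.18-fold lower with Yap1 shRNA. Uqcr11 and Uqcrb fell by 0.95 each with Yap1 WT and by 1.83 and 1.73 with Yap1 shRNA. Uqcrq, shorter than these, had the smallest fall of the complex in both groups, by 0.47 ± 0.08 and 0.89 ± 0.08. Uqcrc1 was 0.20 ± 0.06 higher in Yap1 WT than in Yap1 shRNA cells on the log2 scale (edgeR adjusted p = 0.0177), and this call was lost without the Yap1 shRNA 1 library, at 0.15 (adjusted p = 0.0722).

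Complex IV, cytochrome c oxidase, was the most mixed. Among its 11 subunit genes 9 were called lower in each Yap1 group, and among the 5 lines of assembly factors 3 were. Over all genes tested, 31.8% were called lower with Yap1 WT and 39.1% with Yap1 shRNA, so the count over 5 lines says little. Cox4i1, the common isoform of the regulatory subunit 4, had 376, 364 and 377 CPM with Yap1 WT, 296, 322 and 331 CPM with Yap1 shRNA and 570.5, 606 and 581 CPM with GFP. Its log2 fold change came to -0.65 ± 0.05 with Yap1 WT and to -0.89 ± 0.05 with Yap1 shRNA. Cox5a and Cox5b, which also sit around the catalytic core, fell by 0.66 and 0.82 on the log2 scale with Yap1 WT, and fell by 0.94 and 1.00 with Yap1 shRNA. Cox7b, a small membrane subunit, had the largest fall with Yap1 shRNA of any member with a mean of at least 5 CPM. Its level was 126, 93.5 and 109 CPM with Yap1 WT, 42.5, 46.9 and 51.4 CPM with Yap1 shRNA and 274, 282 and 270.0 CPM with GFP, that is 2.51-fold lower with Yap1 WT and 5.87-fold lower with Yap1 shRNA. Cox6b1, which faces the intermembrane space, fell by 0.95 ± 0.07 and 1.87 ± 0.08, and Cox6c by 0.98 ± 0.09 and 1.62 ± 0.10. Cox7a2l, known for joining complexes III and IV into supercomplexes, had one of the smallest falls, by 0.43 ± 0.06 and 0.50 ± 0.06, whereas the short Cox7a2l2 line fell by 1.10 ± 0.14 and 2.50 ± 0.18. Expected counts of Cox7a2l2 were fractional (59.57, 84.45 and 110.98 with Yap1 shRNA), and a split of its reads with another line was not tested. The copper chaperone Cox17 fell by 0.89 and 1.35, and Cox10 and Cox15, which make heme A, fell by 0.67 and 0.50 with Yap1 WT and by 0.51 and 0.55 with Yap1 shRNA.

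Complex V makes ATP with a catalytic head (F1) turned by a ring in the membrane. All 5 subunit genes of the head fell, with medians of -1.05 with Yap1 WT and -1.54 with Yap1 shRNA. Atp5f1b, the catalytic beta subunit and the member with the highest TPM in GFP cells, had 1679, 1441 and 1557 CPM with Yap1 WT, 1097, 1270.3 and 1236 CPM with Yap1 shRNA and 3314, 3654 and 3481 CPM with GFP. Atp5f1c, the rotating gamma shaft, fell by 1.14 ± 0.07 and 1.71 ± 0.07 on the log2 scale, and Atp5f1e, the small epsilon subunit of the central stalk, by 1.01 ± 0.08 and 2.10 ± 0.09. The 9 tested genes of the peripheral stalk and the membrane part had medians of -1.08 and -1.90. With the length trend removed the head had the larger falls, with medians of -1.01 and -1.47, and the stalk and membrane genes had -0.82 and -1.20. Atp5me, a membrane subunit of the dimer interface, had 26.4, 20.9 and 23.6 CPM with Yap1 WT, 10.1, 9.28 and 11.3 CPM with Yap1 shRNA and 54.0, 61.3 and 57.7 CPM with GFP, 2.44-fold lower and 5.64-fold lower. Atp5pd of the peripheral stalk had the smallest fall of the complex with Yap1 shRNA, by 1.08 ± 0.07.

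The ring itself is made of c subunits, for which 3 genes encode the same mature protein. Atp5mc1 fell most, to 119.7 ± 12.8 CPM with Yap1 WT and 62.5 ± 7.02 CPM with Yap1 shRNA, against 303 ± 24.0 CPM with GFP (SD, n = 3 each). Its log2 fold change came to -1.34 ± 0.09 with Yap1 WT and to -2.28 ± 0.10 with Yap1 shRNA. Atp5mc2 fell by 0.91 ± 0.06 and 1.58 ± 0.06, and Atp5mc3 by 1.08 ± 0.07 and 1.59 ± 0.08. In TPM, the 3 genes stood close to each other with GFP, Atp5mc1 at 1197, Atp5mc2 at 1143 and Atp5mc3 at 1005. With Yap1 shRNA they stood at 279, 444 and 386 TPM, so that Atp5mc1 had the lowest level of the 3 there.

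A few members went against the rest, and several of them are isoforms that the heart uses little. Ndufa4l2 is a relative of Ndufa4 known as a target of hypoxia signalling that lowers respiration. Both are placed in complex I by their symbols, though the NDUFA4 protein is known as a subunit bound to complex IV. Ndufa4l2 (chromosome 7, 70821904 to 70824085, build rn6) had 0.910, 0.257 and 1.03 CPM with Yap1 WT, 4.63, 3.04 and 2.90 CPM with Yap1 shRNA and 0.139, 0.135 and 0.408 CPM with GFP. Its Yap1 shRNA libraries stood apart from all the others, and the log2 fold change reached 3.89 ± 0.49 with Yap1 shRNA (edgeR adjusted p = 7.52e-06). These levels rest on 18 to 29 reads per library with Yap1 shRNA and on 2, 2 and 6 reads with GFP. Without the GFP 3 library the value was 4.56, and on the log2(TPM + 1) scale, which understates changes of low genes, it was 2.55. With Yap1 WT the value was 1.64 ± 0.59 (edgeR adjusted p = 0.0273). That call was lost at equal depth (1.3, adjusted p = 0.104) and without GFP 1, GFP 2, Yap1 WT 1 or Yap1 WT 3 (1.32 to 1.43, adjusted p = 0.087 to 0.117), and without GFP 3 the value was 2.32. Ndufa4 itself had 221 ± 7.87 CPM with Yap1 WT, 134 ± 4.04 CPM with Yap1 shRNA and 419 ± 17.7 CPM with GFP (SD, n = 3 each).

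Cox4i2, an isoform of subunit 4 known from lung and from cells short of oxygen, had 3.72, 3.16 and 3.42 CPM with Yap1 WT, between 10.1 and 11.3 CPM in the 3 Yap1 shRNA libraries, and 3.89, 3.86 and 3.06 CPM with GFP. The Yap1 WT and GFP libraries overlapped, and the Yap1 shRNA libraries stood 2.99-fold above GFP (log2 fold change 1.58 ± 0.16, edgeR adjusted p = 6.97e-07). In TPM, Cox4i2 stood at 10.7 ± 0.918 with Yap1 WT, 34.4 ± 0.935 with Yap1 shRNA and 9.85 ± 1.35 with GFP, far under Cox4i1 at 1179 ± 23.5, 1028 ± 30.0 and 1645 ± 33.6 TPM in the same order of groups. Cox6b2, an isoform known from testis, was not called against GFP, with log2 fold changes of -0.24 ± 0.20 with Yap1 WT and 0.47 ± 0.21 with Yap1 shRNA (edgeR adjusted p = 0.329 and 0.0574). With Yap1 shRNA it was called under 6 of the 20 alternatives that tested it: 2 other scalings, both fits on TPM, the length trend removed and Yap1 shRNA 3 left out (0.49 to 1.11). Yap1 WT over Yap1 shRNA it was -0.70 ± 0.22 (edgeR adjusted p = 0.0136), and that call was lost with DESeq2 (-0.70, adjusted p = 0.0517), at equal depth (-0.54, 0.0707) and without the Yap1 shRNA 2 library (-0.47, 0.107).

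Cox11, which delivers copper to the catalytic core of complex IV, has 2 overlapping lines on chromosome 10, of the genes 103693419 (78168691 to 78173845) and 690300 (78009333 to 78175671), and reads could be split between them. The shorter line had 4.72, 5.13 and 6.33 CPM with Yap1 WT, 10.4, 9.95 and 6.92 CPM with Yap1 shRNA and 4.37, 4.33 and 4.28 CPM with GFP. The longer had 9.02, 6.41 and 9.83 CPM with Yap1 WT, 20.9, 16.9 and 18.5 CPM with Yap1 shRNA and 10.3, 8.66 and 7.27 CPM with GFP. Both lines were higher with Yap1 shRNA, by 1.07 ± 0.18 and 1.10 ± 0.17 on the log2 scale, and neither was called with Yap1 WT against GFP. Ndufa4l2, Cox4i2, Cox6b2, both Cox11 lines and Ppa1 were the 6 members called lower in Yap1 WT than in Yap1 shRNA cells.

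**Figure D3:**
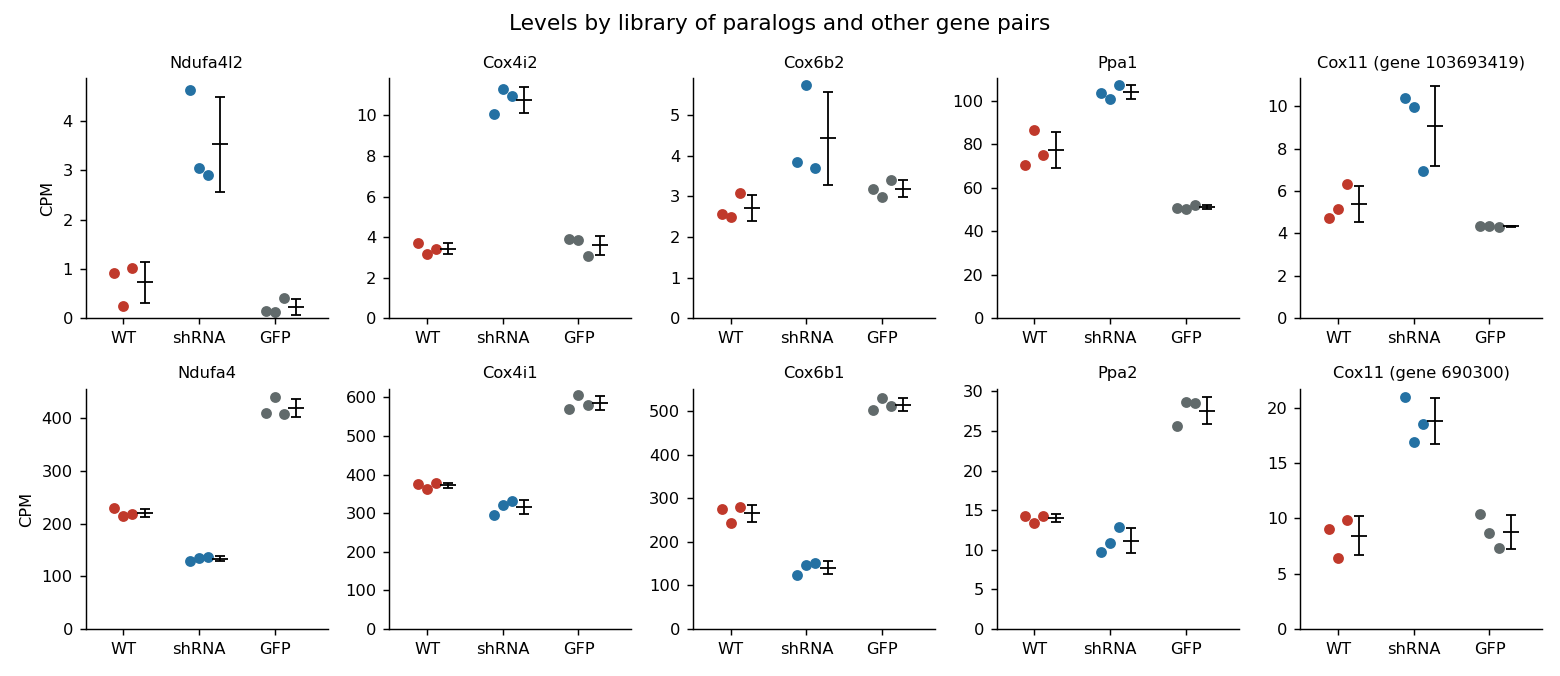
Level in CPM (y axes from 0, each with its own range) of 10 members in the 3 libraries of each group, with the mean ± SD beside the points. In the upper row Ndufa4l2, Cox4i2, Ppa1 and a Cox11 line are highest with Yap1 shRNA, Cox4i2 at 10.1 to 11.3 CPM there and at 3.06 to 3.89 CPM with GFP, while below them Ndufa4, Cox4i1, Cox6b1 and Ppa2 are highest with GFP.

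The pathway annotation also holds enzymes that belong to no respiratory complex, and the pyrophosphatases among them parted ways. Ppa1, which splits pyrophosphate in the cytosol, had 70.3, 86.4 and 75.2 CPM with Yap1 WT, 104, 101 and 107 CPM with Yap1 shRNA and 50.6, 50.3 and 52.1 CPM with GFP. The 3 groups did not overlap, and its log2 fold change came to 0.60 ± 0.07 with Yap1 WT and to 1.03 ± 0.07 with Yap1 shRNA (edgeR adjusted p = 9.22e-06 and 2.8e-08). Ppa2, the mitochondrial enzyme, fell instead, to 14.0 ± 0.480 CPM with Yap1 WT and 11.1 ± 1.60 CPM with Yap1 shRNA, against 27.6 ± 1.72 CPM with GFP (SD, n = 3 each). Lhpp, a phosphatase of the same annotation, fell by 1.06 ± 0.12 and 1.58 ± 0.14. Tcirg1, a membrane subunit of the vacuolar proton pump whose symbol the rule for Atp6 does not catch, was highest with Yap1 WT at 55.4, 61.0 and 61.4 CPM, and had 35.2, 36.3 and 30.4 CPM with Yap1 shRNA and 25.7, 27.9 and 26.1 CPM with GFP. Atp12a, a proton and potassium pump of the cell surface, fell by 1.63 ± 0.32 on the log2 scale with Yap1 WT. It had 2, 0 and 1 reads with Yap1 shRNA and 55, 50 and 57 with GFP, a level per read 22.3-fold lower with Yap1 shRNA with a 95% exact counting interval of 7.50-fold to 109-fold, which covers counting error only.

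Some members are annotated as like another member, and reads could be split between them, which was not tested. Atp5pb, the b subunit of the peripheral stalk of ATP synthase, had 0 reads in 7 of the 9 libraries and was not tested. LOC100911417, annotated as a b subunit-like gene on the same chromosome, had 235, 207 and 226 CPM with Yap1 WT, 208, 226 and 232 CPM with Yap1 shRNA and 357, 384 and 367 CPM with GFP. It was lower in both Yap1 groups, by 0.73 ± 0.06 and 0.74 ± 0.06 on the log2 scale, with no call between them (0.01 ± 0.06, edgeR adjusted p = 0.925). RGD2320734, annotated as a complex III subunit 9-like gene without a longer gene body (chromosome 15, 86123181 to 86123498), had 63.9 ± 5.75 CPM with Yap1 WT, 33.8 ± 3.60 CPM with Yap1 shRNA and 143 ± 7.42 CPM with GFP, while Uqcr10, the gene annotated as that complex's subunit X, had 1.83 ± 0.476, 1.24 ± 0.496 and 5.90 ± 0.364 CPM in the same order. Both were called lower in both Yap1 groups. Of the provisional genes, LOC679739 and LOC687508 also fell in both, and LOC100363268 and LOC108348144 had too few reads to test.

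Within a group the members tended to move together from library to library. In 53 of the 90 members the Yap1 WT 1 library was the highest of its group and Yap1 WT 2 the lowest (58.9%), against 24.2% of all genes tested. The summed cardiomyocyte markers had the same order, from 12024 CPM in Yap1 WT 1 down to 7174 CPM in Yap1 WT 2, and Yap1 itself the opposite one, with 559 CPM in Yap1 WT 1 and 812 CPM in Yap1 WT 2. Leaving out Yap1 WT 1 or Yap1 WT 2 changed the number of members called by at most 1 in either direction against GFP. Among the 84 members with a mean of at least 5 CPM, the median coefficient of variation between libraries was 6.57% with Yap1 WT, 7.26% with Yap1 shRNA and 4.9% with GFP.

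Most members are short transcripts, and fold change moved with length. Effective length, taken from the ratio of deposited counts to TPM, was 0.192 of that of the median gene tested for the median member, and 86 of the 90 were shorter than the median gene. Across the 90 members, fold change and length had a Spearman's rho of 0.20 for Yap1 WT against GFP, 0.40 for Yap1 shRNA against GFP and -0.48 for Yap1 WT over Yap1 shRNA. Across all genes tested it was 0.07, 0.11 and -0.14, and genes are not independent replicates. The depth of the groups differed too, with the fewest reads in the Yap1 shRNA libraries.

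Removing that trend, as estimated over all genes, left the members lower, with medians of -0.68 with Yap1 WT and -1.01 with Yap1 shRNA against GFP and 81 members called lower in each comparison. Against GFP, 27 members moved by over 1.5 times with Yap1 shRNA and none did with Yap1 WT. The largest shift was that of Atp5me, the shortest, with -1.51 in place of -2.50 with Yap1 shRNA. Cox7b had -1.88 in place of -2.55 and Cox5b -0.37 with a call kept, while Sdha, a longer gene, had -1.71 in place of -1.67. The calls of Uqcrq with Yap1 WT (-0.14, edgeR adjusted p = 0.0573) and of Ndufa12 with Yap1 shRNA (-0.11, adjusted p = 0.106) were lost. Between Yap1 WT and Yap1 shRNA, 14 calls were lost, among them those of Cox4i1, Cox5a, Cox17, Ndufs8 and Ppa2, and the median of the 11 complex IV subunits was 0.03 in place of 0.29. The source of the trend was not tested.

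**Figure D4:**
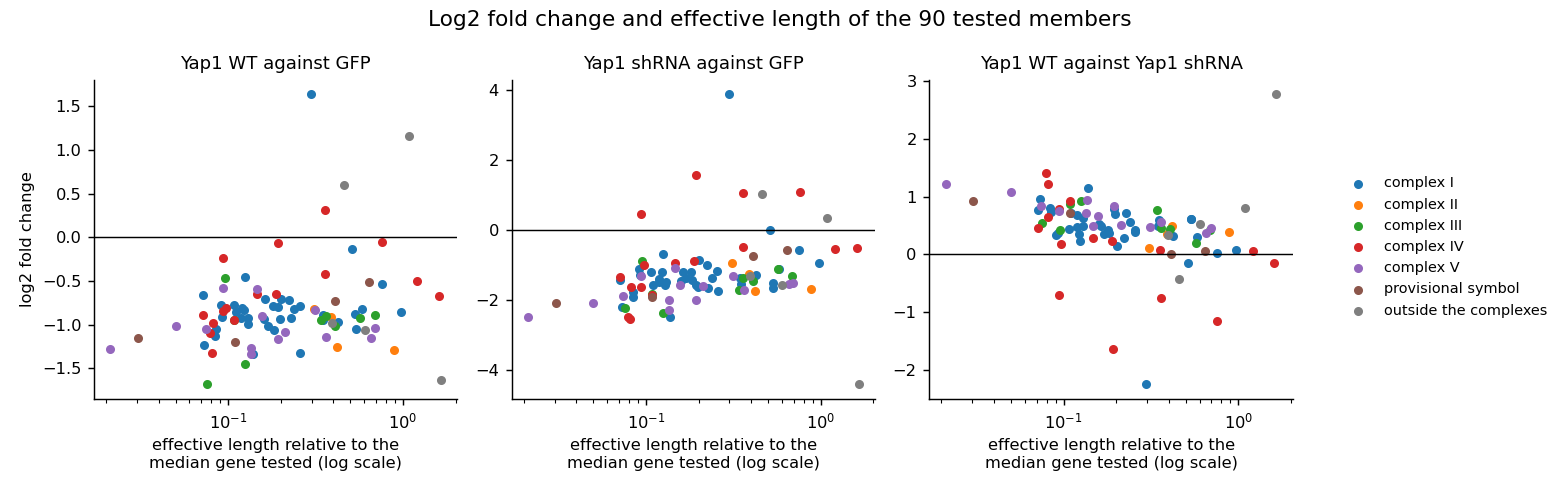
Log2 fold change (y axis) of the 90 tested members against effective length relative to the median gene tested (x axis, log scale), with 1 point per gene coloured by complex, in the 3 comparisons. Nearly all points lie left of 1, the shorter members tend to lie lower with Yap1 shRNA against GFP (rho = 0.40) and higher for Yap1 WT over Yap1 shRNA (rho = -0.48).

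The starts of these genes were set beside their changes, because respiratory genes are known to share binding motifs there. RefSeq (build GRCr8) gave 79 of the 94 members a window from 250 bases before to 50 bases after the start of transcription. The windows below run from 110 bases before the start to 10 bases from it, 5′ to 3′ on the strand of the gene. Capitals mark matches, on either strand, to the letters searched for NRF1 (GCGCANGCG), ETS factors such as GABP (CCGGAAGT), the estrogen-related receptors (TCAAGGTCA) and YY1 (ATGGCGGC). They show members that fell, from Uqcrc1 to the largest falls, and members that rose, with and without a match. They are picked examples, and the shares over all 79 windows are given below. Among members not shown, Atp5mc1 (-2.28 with Yap1 shRNA) held no match in this stretch. Ndufb4 (-1.93) held NRF1 matches that run past its ends. Uqcrc1 was near the median member with Yap1 WT (-0.92 against -0.91) and fell less than it with Yap1 shRNA (-1.12 against -1.41).
Sdha (chr1:30764443-30764562, plus strand, complex II, lower): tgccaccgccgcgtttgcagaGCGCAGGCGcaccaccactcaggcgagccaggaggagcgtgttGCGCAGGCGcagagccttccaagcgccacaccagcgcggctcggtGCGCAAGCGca
Uqcrc1 (chr8:118468113-118468232, plus strand, complex III, lower): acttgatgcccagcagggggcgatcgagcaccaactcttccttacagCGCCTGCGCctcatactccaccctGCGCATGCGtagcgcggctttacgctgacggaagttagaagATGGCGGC
Uqcrh (chr5:134790873-134790992, minus strand, complex III, lower): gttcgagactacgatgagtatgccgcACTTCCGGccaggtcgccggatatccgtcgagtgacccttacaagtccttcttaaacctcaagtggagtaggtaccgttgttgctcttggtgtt
Atp5me (chr14:1464750-1464869, plus strand, complex V, lower): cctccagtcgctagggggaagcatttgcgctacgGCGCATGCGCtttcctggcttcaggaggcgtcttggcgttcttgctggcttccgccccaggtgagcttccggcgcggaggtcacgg
Cox7b (chrX:75148926-75149045, plus strand, complex IV, lower): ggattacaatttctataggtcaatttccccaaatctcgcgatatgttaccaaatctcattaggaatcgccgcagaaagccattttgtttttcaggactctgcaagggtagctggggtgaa
Ppa1 (chr20:30133450-30133569, plus strand, cytosolic pyrophosphatase, higher): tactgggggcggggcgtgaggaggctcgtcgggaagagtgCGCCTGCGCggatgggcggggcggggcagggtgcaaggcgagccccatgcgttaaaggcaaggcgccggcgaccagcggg
Ndufa4l2 (chr7:65242059-65242178, plus strand, higher): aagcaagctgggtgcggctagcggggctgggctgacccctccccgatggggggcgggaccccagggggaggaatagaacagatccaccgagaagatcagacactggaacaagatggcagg

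Sdha held 3 NRF1 matches within this stretch and Uqcrc1 2 of them with a YY1 match at the start. Atp5me held a palindrome that matches NRF1 on both strands and is counted once, and Uqcrh an ETS match on the opposite strand. Cox7b, one of the members with the largest falls, and Ndufa4l2, which rose, held no match in the stretch shown, and Ppa1, which rose, held an NRF1 match. Over all 79 windows of members, 20 held an NRF1 match (25.3%), against 13.1% of the windows of genes tested and 5.8% of all promoters in the table. YY1 matches stood in 12 (15.2%, against 5.82% of genes tested and 2.53% of all), ETS matches in 9 (11.4%, against 8.17% and 3.81%) and estrogen-related receptor matches in 2 (2.53%, against 0.25% and 0.433%). In total 36 of the 79 held at least 1 of the 4 motifs. The same share over genes tested was not worked out, so this count cannot be set beside it. A TATA box (TATAAA) stood in 6 (7.59%, against 7.78% and 14.2%). The 20 tested members with an NRF1 match had a median change of -0.88 on the log2 scale with Yap1 WT and -1.53 with Yap1 shRNA, and the 57 without one -0.92 and -1.39. With Yap1 shRNA the median member with an ETS match fell by 1.00 and that without one fell by 1.49, and with a YY1 match the median member fell by 1.21, against 1.49 without one. A match describes letters only and shows no binding.

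Among genes that assemble the complexes, falls outnumbered rises in every list, with and without the length trend. Of 16 assembly factors of complex I, 9 fell with Yap1 WT and 13 with Yap1 shRNA and none rose (medians -0.27 and -0.75). Of 9 assembly factors of complexes II and III, 7 fell in each group and none rose (medians -0.33 and -0.58). Of 22 lines of complex IV assembly factors, 5 of them also members, 11 fell and 1 rose with Yap1 WT and 15 fell and 4 rose with Yap1 shRNA (medians -0.20 and -0.52), Cox20, which escorts a mitochondrially made subunit, falling by 1.68 ± 0.08 and 2.11 ± 0.09 on the log2 scale. All 6 tested assembly factors or inhibitors of complex V fell in both (medians -0.61 and -1.03), among them Tmem70, by 1.09 ± 0.08 and 1.64 ± 0.09. With the length trend removed, the inhibitor Atp5if1 lost both calls, at 0.04 with Yap1 WT and 0.02 with Yap1 shRNA (edgeR adjusted p = 0.459 and 0.793), and so did Uqcc2 of complex III (-0.02 and 0.04) and Ndufaf2 of complex I (-0.32 and -0.25). In all, 6 calls of these 4 lists were lost with Yap1 WT and 9 with Yap1 shRNA. These lists are read against the shares called lower over all genes given above.

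The carriers that link the chain to its substrates were lower as well. Cytochrome c (Cycs), which ferries electrons between complexes III and IV, fell by 1.03 ± 0.07 with Yap1 WT and by 1.60 ± 0.07 with Yap1 shRNA on the log2 scale. Slc25a4, the adenine nucleotide carrier of heart and muscle, fell by 0.77 ± 0.07 and 1.48 ± 0.07, and the phosphate carrier Slc25a3 by 0.98 ± 0.07 and 1.31 ± 0.07. All 9 tested genes of that list fell in both groups (medians -0.70 and -0.83). Of 13 genes of coenzyme Q synthesis, 8 fell in each group, 2 rose with Yap1 WT and 3 with Yap1 shRNA (medians -0.58 and -0.75). Over all genes tested 31.8% fell and 32.0% rose with Yap1 WT, and 39.1% fell and 39.2% rose with Yap1 shRNA. Coq8a, an atypical kinase needed for that pathway, had 11.2, 7.52 and 9.74 CPM with Yap1 WT, 5.59, 4.22 and 6.92 CPM with Yap1 shRNA and 82.2, 86.5 and 93.6 CPM with GFP, which is 9.20-fold and 15.6-fold lower. Coq10b, which helps coenzyme Q act in the chain, rose by 0.51 ± 0.07 and 1.27 ± 0.08.

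Genes that keep and transcribe mitochondrial DNA showed both rises and falls. Of 15, 4 fell and 6 rose with Yap1 WT, and 3 fell and 7 rose with Yap1 shRNA (medians -0.01 and 0.21). Over all genes tested 31.8% fell and 32.0% rose with Yap1 WT, and 39.1% fell and 39.2% rose with Yap1 shRNA, so these counts say little of the list itself. Tfam, which packs and transcribes mitochondrial DNA, had 40.6, 48.5 and 44.0 CPM with Yap1 WT, 53.5, 53.0 and 59.9 CPM with Yap1 shRNA and 33.0, 38.4 and 31.6 CPM with GFP. The groups did not overlap, and the log2 fold change came to 0.37 ± 0.09 with Yap1 WT and to 0.69 ± 0.09 with Yap1 shRNA (edgeR adjusted p = 0.00277 and 1.4e-05). The transcription factor Tfb2m rose by 0.24 ± 0.06 and 0.73 ± 0.07.

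The nuclear regulators of the respiratory genes went both ways. Of 12, 5 fell and 5 rose with Yap1 WT, and 4 fell and 7 rose with Yap1 shRNA, counts that are again read against the shares over all genes (31.8% and 32.0% with Yap1 WT, 39.1% and 39.2% with Yap1 shRNA). Ppargc1a, which encodes PGC-1alpha, had 14.4, 13.8 and 14.8 CPM with Yap1 WT, 9.59, 11.1 and 10.8 CPM with Yap1 shRNA and 30.5, 33.2 and 30.6 CPM with GFP, 2.20-fold and 3.00-fold lower. Ppara, a nuclear receptor of fatty acid oxidation, fell by 1.44 ± 0.10 and 2.42 ± 0.13 on the log2 scale. Gabpb1, a subunit of GABP, had 40.1, 46.6 and 40.3 CPM with Yap1 WT, 95.7, 100.4 and 100.3 CPM with Yap1 shRNA and 24.6, 28.5 and 30.2 CPM with GFP, and was higher in both groups. Yy1 rose by 0.35 ± 0.07 and 1.56 ± 0.07, and Pprc1, a relative of PGC-1alpha, by 0.58 ± 0.07 and 1.43 ± 0.07. Perm1, a muscle regulator of respiration picked here after its values were seen, stood lower with Yap1 WT and higher with Yap1 shRNA than with GFP, with 6.37, 6.84 and 7.18 CPM with Yap1 WT, 27.8, 26.5 and 23.7 CPM with Yap1 shRNA and 12.6, 10.8 and 10.5 CPM with GFP. Its log2 fold change of Yap1 WT over Yap1 shRNA was -1.93 ± 0.12 (edgeR adjusted p = 2.5e-08).

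**Figure D5:**
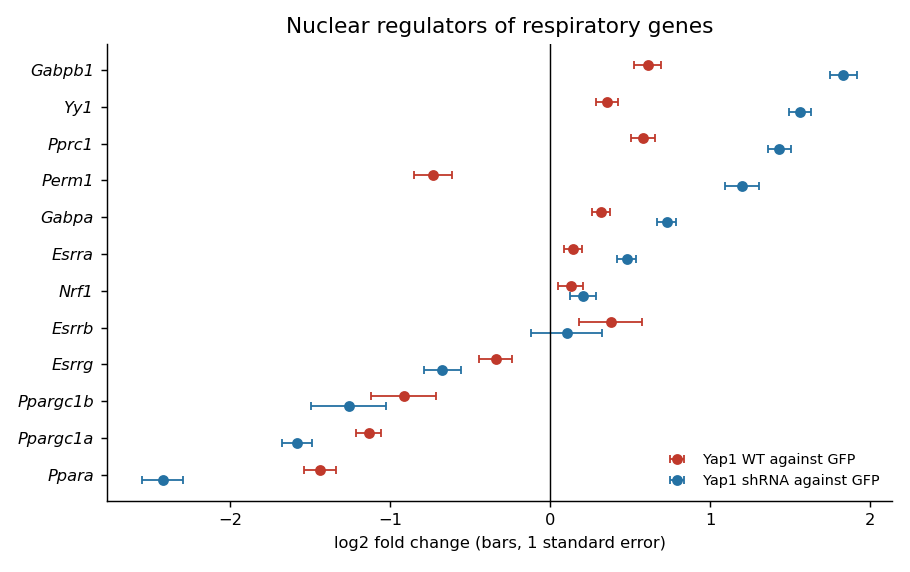
Log2 fold change against GFP (x axis, bars of 1 standard error) of the 12 nuclear regulators of respiratory genes (y axis), with Yap1 WT above Yap1 shRNA in each row. Gabpb1, Yy1 and Pprc1 stand above 0 in both groups, Ppara and Ppargc1a below 0 in both, and Perm1 at -0.73 with Yap1 WT and 1.20 with Yap1 shRNA.

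The authors' deposited table holds fold changes from their own fit. For Yap1 WT against GFP, 93 members had a value there. Of these, 81 had a negative log2 fold change and q below 0.05, and 2 a positive one. For Yap1 shRNA against GFP the authors' deposited table had 82 lower and 6 higher of 94. For Yap1 WT against Yap1 shRNA it had 5 lower and 70 higher of 94. The share of all genes called in that table was not worked out here, so these counts stand without it.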

How the data were processed

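Messenger RNA was enriched with oligo(dT) beads, prepared with a NEBNext Ultra kit and sequenced on a BGISEQ-500, per the labels' protocols. The submitters' processing notes name HISAT2, Bowtie2, RSEM 1.3.1, DESeq2 1.4.5 and build rn6, without the role of each, and the strand setting is not given in the sources used here. The deposited table holds an expected count for each gene and library, and 89.4 to 90.6% of these are whole to within 0.005. It also holds TPM, scaled by the authors within each library, and the authors' log2 fold changes. The deposited q-values are DESeq2's, per the file headers. A second table with the same 36 value columns was not used.

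Expected counts were rounded. One model with a term for each group covered all 9 libraries in edgeR 4.0.16 under R 4.3.3, after TMM scaling (factors 0.961 to 1.07) and filterByExpr. Each comparison used the quasi-likelihood F test with Benjamini-Hochberg adjustment over 13708 genes. Standard errors are |log2 fold change| over the root of F. Libraries of a group varied by a biological coefficient of variation of 7.18%. The fit was run on simulated counts in which far fewer genes changed than here and no trend with length was set. That run therefore cannot show how the scaling or the removal of the length trend performs on these data. Depth was 6103221 to 15368473 reads per library, which limits members with few reads.

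For the length trend, each gene's log2 CPM in a library, less its mean over all 9 libraries, was smoothed against effective length. The curve of each library, over all genes tested, entered the fit as an offset. The text names the catalytic core of each complex, members called against most of their complex (up to 12), isoform pairs and members outside the complexes. It also names the 2 largest falls and rises of each complex in each comparison, among called members with a mean of at least 5 CPM. From each neighbouring list the rule picked up to 3 genes with the lowest p in each comparison with GFP, and only some of these are named. Further genes are named beyond that rule, after their values were seen. They are Ndufa10 with its copy, Cox10, Cox15, Cox17, genes with split reads, the members lost on removing the length trend, Ndufaf2, Atp5if1 and Perm1. Members and lists were chosen with earlier results of these data known. Not every result is reported here. No list was tested as a set. Libraries of a group differed by more than sampling noise, so none was counted as a copy. Limma 3.58.1 and DESeq2 1.42.0 served as alternatives.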

Additional observations from a re-analysis of the deposited data

How the results depend on the processing

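Counts of members called were recomputed under 21 alternatives: other scalings, filters, tools (DESeq2, limma-trend on TPM), pseudocounts, equal depth, the compared libraries alone, a replicate block, removal of the length trend and each library left out. None of these counts moved by over 1.5 times. Medians of log2 fold change were less steady, and of 315 alternative medians 52 moved and 0 turned round. With the length trend removed, the complex IV median was 0.02 for Yap1 WT over Yap1 shRNA, in place of 0.21. For Yap1 shRNA against GFP it was -0.51 in place of -0.92. With 1 library left out, members called lower and higher were 81 to 82 and 2 to 3 with Yap1 WT against GFP, 81 to 82 and 6 to 7 with Yap1 shRNA against GFP, and 5 to 7 and 70 to 73 with Yap1 WT against Yap1 shRNA. Same-numbered libraries of different groups had correlations of -0.0313 to 0.0939, and libraries with other numbers -0.112 to 0.0559. The highest values were those of same-numbered libraries, all of them small, and whether the numbers mark a shared batch was not tested. The replicate block left the counts at 82 and 3, 82 and 6, and 6 and 73. Of 3013 alternative values for the 48 named members tested, 2972 kept direction and side of the threshold, 20 lost the call, 20 gained one and 1 turned round: Cox5b for Yap1 WT against Yap1 shRNA was -0.13 with the length trend removed (edgeR adjusted p = 0.0278), against 0.19, and its call was also lost without Yap1 WT 1 (0.15) or Yap1 shRNA 1 (0.14). The call of Ppa2 between these groups was lost under 6 alternatives. The median of all genes moved by 0.14 for Yap1 WT against GFP under library size alone, by -0.14 for Yap1 shRNA against GFP under upper quartile scaling and by at most 0.20, with limma on log2(TPM + 0.1). Depth limits members with few reads, above all Ndufa4l2, Atp12a and Uqcr10, and reads of near copies could be split between their lines, which was not tested.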
